A study of Mus musculus with 12 samples.

Results

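The genes described here are 9 genes of glycogen metabolism that were listed by name: the phosphorylase kinase subunit genes Phkg1, Phka1, Phka2 and Phkb, the glycogen phosphorylase genes Pygm and Pygb, and the synthesis genes Gys1, Gbe1 and Ugp2. Each symbol matched 1 of the 51912 Ensembl gene IDs in the deposited table, and all 9 passed the filter on low values that left 13865 genes for testing. A further 40 genes of the same pathways were listed by name to set beside them. The study sequenced RNA from fresh heart ventricles of wild-type (WT) mice and of mice that lack activity of long-chain 3-hydroxyacyl-CoA dehydrogenase (LCHADD), a defect of mitochondrial fatty acid oxidation, and its title concerns acute arrhythmias in this model. Females and males of each genotype gave 4 groups of 3 libraries each. No treatment, age, strain or feeding state is given for any group, and the kind of genetic change in the LCHADD mice is not stated. They also do not say that each library came from a separate animal, so p-values measure the spread between these samples, which may in part be technical.

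Glycogen is the stored glucose polymer of the heart, a fuel held beside the fatty acids on which cardiac muscle mainly relies. It is built from glucose 6-phosphate through glucose 1-phosphate and UDP-glucose, which glycogen synthase (Gys1) adds to a chain started on glycogenin (Gyg) and branched by Gbe1. It is broken down by glycogen phosphorylase, which is switched on when phosphorylase kinase phosphorylates it. Phosphorylase kinase joins a catalytic gamma subunit (Phkg1 in muscle, Phkg2 mainly in liver), the regulatory alpha (Phka1 in muscle, Phka2 in liver) and beta (Phkb) subunits, and calmodulin as the delta subunit that senses calcium. Inherited defects of these enzymes cause glycogen storage diseases.

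The promoters of 3 members are shown because they belong to the members with the largest fall (Phkg1) and the 2 rises (Gbe1 and Ugp2). Each runs from 250 bases before to 50 bases after the start of the gene, on the gene's own strand, from RefSeq on build GRCm38.p6, and all 9 members had an entry. Capitals mark matches to any of 3 motifs searched on both strands: TGATGNAA (a core of the ATF4 element), AAGGTCA (an extended nuclear receptor half-site) and ACGTG (the HIF core, which also lies within the E-box CACGTG).
Phkg1, minus strand, chr5:129879039-129879338: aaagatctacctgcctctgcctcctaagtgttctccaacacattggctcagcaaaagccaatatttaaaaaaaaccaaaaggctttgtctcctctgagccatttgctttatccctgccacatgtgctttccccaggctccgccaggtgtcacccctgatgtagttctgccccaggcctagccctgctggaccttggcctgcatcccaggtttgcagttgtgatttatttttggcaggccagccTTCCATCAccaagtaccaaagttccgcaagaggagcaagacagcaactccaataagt
Gbe1, plus strand, chr16:70313699-70313998: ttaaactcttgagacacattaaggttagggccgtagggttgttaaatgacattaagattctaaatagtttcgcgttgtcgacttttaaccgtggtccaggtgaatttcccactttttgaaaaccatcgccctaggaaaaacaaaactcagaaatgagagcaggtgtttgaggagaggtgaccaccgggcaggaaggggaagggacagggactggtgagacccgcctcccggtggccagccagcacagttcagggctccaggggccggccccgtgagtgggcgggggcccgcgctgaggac
Ugp2, minus strand, chr11:21371218-21371517: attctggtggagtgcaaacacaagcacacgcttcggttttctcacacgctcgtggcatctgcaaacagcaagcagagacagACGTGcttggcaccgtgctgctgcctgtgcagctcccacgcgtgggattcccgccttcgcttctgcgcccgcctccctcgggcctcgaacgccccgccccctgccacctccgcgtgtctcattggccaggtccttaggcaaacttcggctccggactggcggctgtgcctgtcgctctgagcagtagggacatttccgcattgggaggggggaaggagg
The Phkg1 window held 1 match, to the reverse of TGATGNAA, starting 7 bases before the start site; that motif occurs in 3.97% of the 32851 promoters in the table. The Ugp2 window shown held 1 ACGTG, a motif found in 19.6% of promoters, and the Gbe1 window held no match. Ugp2 has another entry in the table, chr11:21370580-21370879 on the minus strand, with no match and 32 CG pairs. These matches describe letters in the windows and no binding was measured. The 3 windows also differed in composition: the Phkg1 window held 2 CG pairs, that of Gbe1 14 and the Ugp2 window shown 23, beside a median of 7 over all promoters.

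Between 15.6 M and 23.2 M reads per library (M, mega) fell on genes, and the values below are normalised reads, that is, read counts divided by 1 size factor per library. Mitochondrially encoded genes took 27.5 to 32.7% of reads in WT and 31.0 to 37.9% in LCHADD libraries. Hadha, which encodes the enzyme that lacks activity in LCHADD, ranged from 21430 to 25845 normalised reads in WT and from 23343 to 28083 in LCHADD libraries. It passed as higher in the mean of both sexes (log2 change 0.17, standard error 0.05, limma adjusted p = 0.013). Its level therefore does not check the labels, since the kind of alteration is not stated. Ventricular cardiomyocyte markers were abundant in every library, while their summed level was 1090600 to 1188700 in WT, 603800 to 907700 in LCHADD females and 935530 to 1060600 in LCHADD males. Of these 9 markers, 7 passed as lower in females and 2 in males. Of all tested genes 17.2% passed as lower and 16.7% as higher in females, and 7.77% and 7.71% in males. Of 4 tested conduction system markers, 3 passed as lower in females and 2 in males, and the list's summed level was 406 to 582 in WT and 138 to 222 in LCHADD libraries. All 6 fibroblast markers passed as lower in females and 2 in males, 3 of 6 endothelial and 5 of 5 erythroid markers passed as lower in each sex, and 2 of 6 macrophage markers passed as higher in females. Of 5 tested smooth muscle and pericyte markers 0 passed in females and 2 passed as lower in males. Of 4 tested neuron and glia markers 0 passed in females and 1 passed as lower in males. Of 3 tested atrial markers 1 (Bmp10) passed as higher in each sex. The skeletal muscle markers, which matter here because that tissue is rich in Phkg1, summed to 20.8 to 53.2 in WT and 6.87 to 29.6 in LCHADD libraries, and 1 of the 2 tested (Tnni2) passed as lower in females and in the mean of both sexes. Its female call was lost on leaving out WT female 1, 2 or 3, WT male 1 or LCHADD female 2. Of the untested ones, Myh4 had no read in any library, and Actn3 had 0.865 to 7.40 normalised reads in WT and none in LCHADD libraries. In bulk tissue, fewer cells of a type and less RNA per cell cannot be told apart. The part of these shifts in the results below was not tested.

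Expression of the 9 members was compared between LCHADD and WT within each sex, in the mean of both sexes, and as the difference between the sexes. Changes are LCHADD minus WT on the scale of log2(normalised reads + 1), with the standard error (SE) of the fit and limma's Benjamini-Hochberg adjusted p over all 13865 genes, and a gene passed when that p was under 0.05. The catalytic subunit gene Phkg1 fell in both sexes, 12.7-fold in females and 7.71-fold in males, whereas Gbe1 and Ugp2 rose in both sexes. In females 2 members rose and 3 fell (Phkg1, Pygm and Gys1), where 16.7% of all tested genes passed as higher and 17.2% as lower. In males 2 rose and 1 fell (Phkg1), where 7.71% of tested genes passed as higher and 7.77% as lower. In the mean of both sexes 2 rose and 2 fell (Phkg1 and Gys1), beside 20.3% and 20.6% of tested genes. The median change of the 9 members was -0.18 in females and 0.057 in males, beside -0.0035 and 1.97e-05 over all tested genes. Scaling by reads of nuclear genes alone, chosen after seeing the data, moved the share of higher genes among all that passed in females from 49.3% to 59.6%.

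Phkg1 encodes the catalytic gamma subunit of muscle phosphorylase kinase. WT females had 390.5, 395 and 285 normalised reads and WT males 303, 317 and 356. LCHADD females had 20.8, 16.5 and 56.0 and LCHADD males 44.8, 59.5 and 26.2. Every LCHADD library lay far below every WT library, and the highest LCHADD value was 59.5 against a lowest WT value of 285. Females changed by -3.67 on the log2 scale (SE 0.35, limma adjusted p = 2.5e-06). Males changed by -2.95 (SE 0.35, limma adjusted p = 7.1e-05). In the mean of both sexes the log2 change was -3.31 (SE 0.25), the ninth lowest of the 13865 tested genes. Leaving out any 1 library gave a mean change between -3.56 and -3.14. Exons of Phkg1 overlap those of Sumf2 on the opposite strand, and the sources used here do not say whether counting used strand. Sumf2 itself, a gene of sulfatase modification, ranged from 49.8 to 107 in WT and 61.3 to 87.0 in LCHADD libraries and did not pass in either sex. How many of the reads left for Phkg1 in LCHADD libraries came from Sumf2 was not tested.

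Phkg2, the other gene for a gamma subunit, did not pass in either sex. WT females had 51.6, 64.2 and 72.7 normalised reads, WT males 92.6, 65.3 and 70.9, LCHADD females 75.5, 72.8 and 91.9, and LCHADD males 89.6, 61.8 and 91.0. The groups overlapped, with log2 changes of 0.35 in females (SE 0.21) and 0.08 in males (SE 0.21). Divided by the length of all annotated exons, Phkg1 made up 77.4 ± 6.01% of the summed Phkg1 and Phkg2 level in WT females and 72.4 ± 4.88% in WT males. In LCHADD its share was 18.0 ± 8.10% in females and 25.2 ± 11.2% in males (SD, n = 3). The gamma genes thus changed order: Phkg1 was the larger in all 6 WT libraries and the smaller in all 6 LCHADD libraries.

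**Figure D1:**
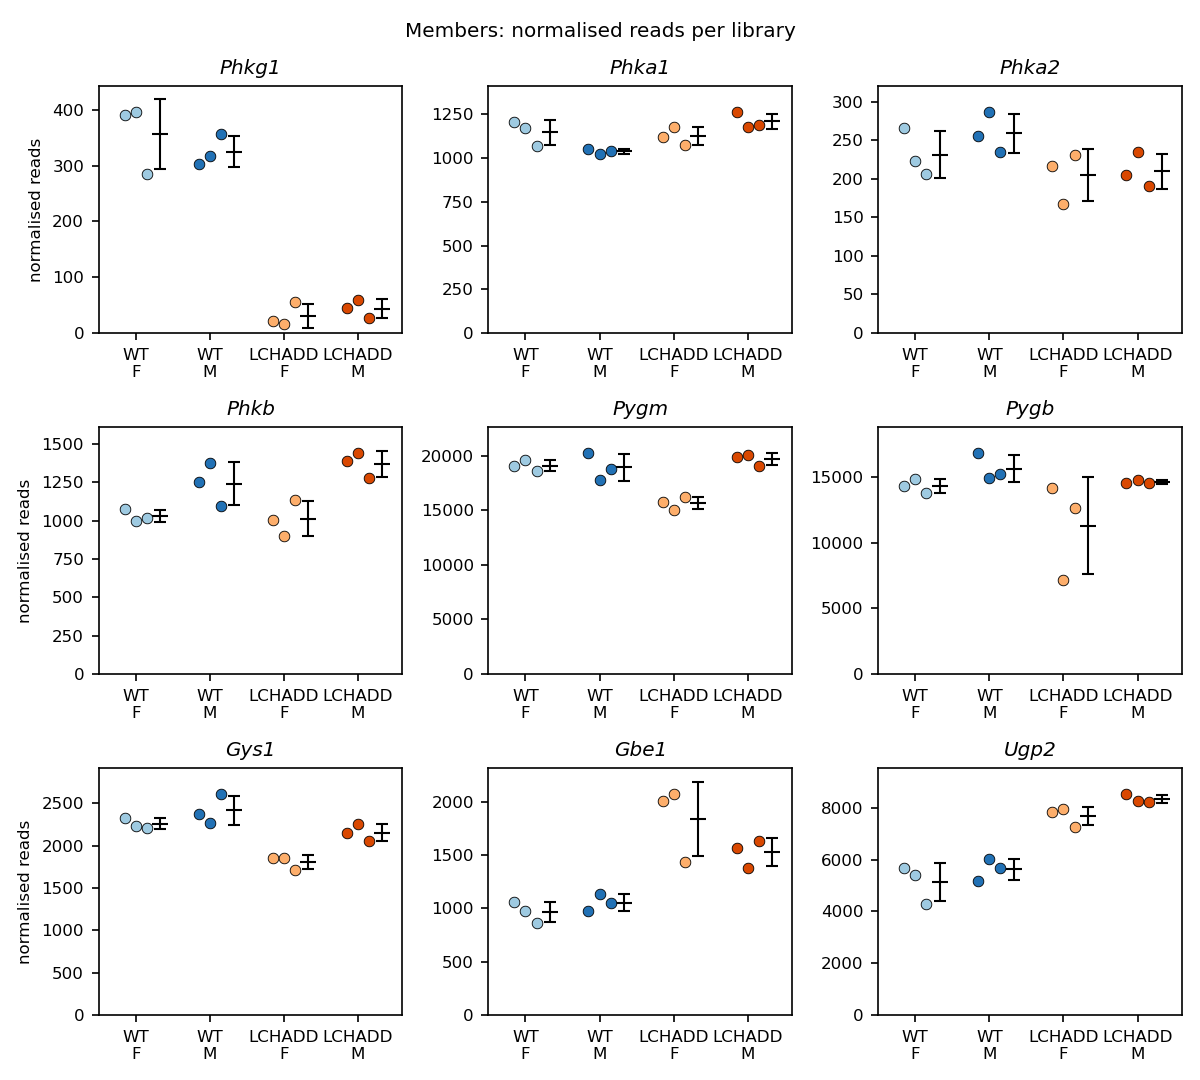
Normalised reads of the 9 members in each of the 12 libraries (points, in replicate order within WT and LCHADD females, F, and males, M), with the group mean and SD beside them; each panel has its own axis from 0. Phkg1 is below 60 in all 6 LCHADD libraries and above 280 in all WT libraries, while Gbe1 and Ugp2 are higher in every LCHADD library than in any WT library.

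None of the alpha and beta subunit genes of the kinase passed in either sex. For Phka1, the muscle alpha subunit, WT females had 1204, 1174 and 1068 normalised reads, WT males 1052, 1022 and 1041, LCHADD females 1120, 1180 and 1077, and LCHADD males 1261, 1180 and 1188. The female groups overlapped, while all 3 LCHADD males were above all 3 WT males. Its log2 change was -0.03 in females (SE 0.07, 95% interval -0.18 to 0.13) and 0.22 in males (SE 0.07), with a limma adjusted p of 0.054 in males that did not pass. Of the 25 alternative settings tried for Phka1 in males, 10 brought it past the threshold, with changes of 0.22 to 0.23.

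For Phka2, the liver alpha subunit, WT females had 265, 223 and 206 normalised reads, WT males 256, 286 and 235.2, LCHADD females 217, 167 and 231, and LCHADD males 205, 234.7 and 190.0. The 3 LCHADD males were just or well below the lowest WT male and the female groups overlapped, but the log2 changes of -0.18 in females (SE 0.14) and -0.30 in males (SE 0.14) did not pass. Its change in the mean of both sexes, -0.24 (SE 0.10, limma adjusted p = 0.072), did not pass either, but did with array quality weights (adjusted p = 0.043) and without LCHADD female 3 (adjusted p = 0.034). For Phkb, the single beta subunit gene, WT females had 1073, 998 and 1014, WT males 1253, 1379 and 1095, LCHADD females 1006, 903 and 1131, and LCHADD males 1390.2, 1438 and 1276. Its groups overlapped in both sexes, and its log2 changes of -0.03 (SE 0.10, 95% interval -0.24 to 0.18) in females and 0.14 (SE 0.10, 95% interval -0.07 to 0.35) in males did not pass. Phka1 made up 77.6 to 83.6% of the summed Phka1 and Phka2 level per exon length in WT libraries and 81.9 to 87.3% in LCHADD libraries.

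Calmodulin, the delta subunit, is shared with many other enzymes. Its gene Calm3 fell in both sexes, by 0.35 in females (SE 0.07) and by 0.25 in males (SE 0.07) on the log2 scale, from group means of 2483 ± 192 and 2595 ± 98.6 to 1950 ± 127 and 2186 ± 64.5 normalised reads (SD, n = 3). Calm2 did not pass in either sex. The Calm3 call in males was lost on leaving out any 1 of the 6 male libraries (limma adjusted p 0.058 to 0.14) and without the filter on low values. Of the 7 kinase genes described, then, 0 rose and 2 fell in each sex (Phkg1 and Calm3). The shares of all tested genes that passed as lower were 17.2% in females and 7.77% in males.

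Glycogen phosphorylase, the target of the kinase, releases glucose 1-phosphate from the chain. For Pygm, the muscle form, WT females had 19052, 19607 and 18614 normalised reads and LCHADD females 15809, 15070 and 16197. The female groups did not overlap, and the log2 change was -0.28 (SE 0.07, limma adjusted p = 0.0050), which is 1.22-fold lower. WT males had 20213, 17779.9 and 18794 and LCHADD males 19892, 20094 and 19041, which overlapped, and the log2 change of 0.06 (SE 0.07, 95% interval -0.09 to 0.20) did not pass.

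Pygb, the brain form, which the heart also expresses, depended on 1 library. WT females had 14364, 14909.8 and 13828 normalised reads, WT males 16831, 14944 and 15231, and LCHADD males 14563, 14835 and 14589. LCHADD females had 14180, 7162 and 12646, so that LCHADD female 2 lay far below every other library. The log2 change in females was -0.40 (SE 0.17, limma adjusted p = 0.083) and became -0.10 without LCHADD female 2. It passed without LCHADD female 1 (-0.59) or LCHADD female 3 (-0.51). In males the change was -0.09 (SE 0.17). The Pygm share of the summed Pygm, Pygb and Pygl level per exon length was 75.8% in LCHADD female 2, beside 62.4 to 67.0% in the other LCHADD libraries and 63.9 to 66.7% in WT.

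Of the 4 breakdown genes described, 0 rose and 2 fell in females (Pygm and Gaa), none passed in males with limma, edgeR or DESeq2 (1, Pygl, had an unadjusted p under 0.05), and in the mean of both sexes 1 rose (Pygl) and 1 fell (Gaa). Of all tested genes 16.7% passed as higher and 17.2% as lower in females. Those shares were 7.71% and 7.77% in males and 20.3% and 20.6% in the mean of both sexes. Gaa, the lysosomal glucosidase that degrades glycogen in lysosomes, fell by 0.38 in females (SE 0.11) and by 0.22 in the mean of both sexes (SE 0.07). Pygl, the liver phosphorylase, was low (59.2 to 108 normalised reads in all libraries) and rose by 0.37 in the mean of both sexes (SE 0.13, limma adjusted p = 0.037). The Pygl call was lost without the filter on low values, and on leaving out any 1 library other than WT male 1, LCHADD female 2, LCHADD male 1 and LCHADD male 2. The Gaa call in the mean of both sexes was lost with nuclear-read scaling, and on leaving out any 1 library other than WT female 2, WT male 2, LCHADD female 2, LCHADD male 1 and LCHADD male 2.

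On the synthesis side, Gys1, which encodes muscle glycogen synthase, was lower. WT females had 2329.6, 2237 and 2205 normalised reads and LCHADD females 1852, 1851 and 1707. WT males had 2374, 2269 and 2605 and LCHADD males 2148, 2254 and 2056. The groups did not overlap in either sex, although the highest LCHADD male was close to the lowest WT male. Females changed by -0.32 on the log2 scale (SE 0.07, limma adjusted p = 0.0029). The male change of -0.16 (SE 0.07, limma adjusted p = 0.14) did not pass, and that averaged over the sexes was -0.24 (SE 0.05, limma adjusted p = 0.0014). Its exons overlap those of Ruvbl2 on the opposite strand, which ranged from 307 to 446 normalised reads and did not pass in either sex. Gys2, the liver synthase, had no read in any library.

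Gbe1, the branching enzyme, rose in both sexes. WT females had 1056, 979 and 864 normalised reads, WT males 974, 1133 and 1052, LCHADD females 2008, 2069 and 1436, and LCHADD males 1569, 1381 and 1629.6. All 6 LCHADD libraries were above all 6 WT libraries. The female change was 0.91 on the log2 scale (SE 0.13, limma adjusted p = 6.2e-05), 1.88-fold higher. The male change was 0.53 (SE 0.13, limma adjusted p = 0.0095), 1.45-fold higher. Without WT male 1 the male change was 0.48 with a limma adjusted p of 0.051.

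Ugp2 makes UDP-glucose, the donor for glycogen synthase. WT females had 5659, 5423 and 4283 normalised reads, WT males 5191, 6009.7 and 5659, LCHADD females 7819, 7945 and 7272, and LCHADD males 8513, 8265 and 8211. Here too every LCHADD library exceeded every WT library. On the log2 scale females rose by 0.59 (SE 0.09, limma adjusted p = 0.00020), 1.51-fold. Males rose by 0.57 (SE 0.09, limma adjusted p = 0.00087), 1.48-fold. Its exons overlap those of Gm12043 on the opposite strand, which had at most 3.43 normalised reads in any library.

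Of the 10 listed synthesis genes 9 were tested, and 5 rose in each sex: Gyg, Gbe1, Ugp2, Pgm1 and Hk1. Of all tested genes 16.7% passed as higher in females and 7.71% in males. Gyg, the glycogenin on which a new chain starts, rose most, from 2634 to 3216 normalised reads over the WT libraries to 6275 to 10226 in LCHADD females and 4423 to 5457 in LCHADD males. Its log2 change was 1.45 in females (SE 0.14) and 0.85 in males (SE 0.14). Pgm1, which interconverts glucose 6-phosphate and glucose 1-phosphate, rose by 0.70 in females and 0.54 in males (SE 0.08 each), and Hk1, a hexokinase, by 0.54 and 0.65 (SE 0.11 each). The LCHADD libraries did not overlap the WT libraries for any of these 5 genes. The share of all tested genes with such a separation was not counted, here or for Epm2a below. In the mean of both sexes 20.3% of all tested genes passed as higher and 20.6% as lower. Hk2, the other hexokinase listed, did not pass in either sex, nor did Pgm2 and Pgm2l1, relatives of Pgm1. The female result of Hk2 depended on 1 library: LCHADD females had 4381, 6710 and 4718 normalised reads, and WT females 6547, 6523 and 5699. Without LCHADD female 2 it passed as lower in females (-0.46, limma adjusted p = 0.00021). It also did with array quality weights (-0.50, limma adjusted p = 9.2e-06). Under both settings Hk2 passed as lower in the mean of both sexes too. The median log2 change of the 9 tested synthesis genes was 0.54 in females and 0.53 in males. With all libraries equally weighted, Gys1 was the 1 gene of the list that fell in females, where 17.2% of all tested genes passed as lower. Exons of Pgm1 and Hk1 overlap other genes on the opposite strand (Itgb3bp and Hk1os), whereas those of Gyg and Gbe1 do not.

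**Figure D2:**
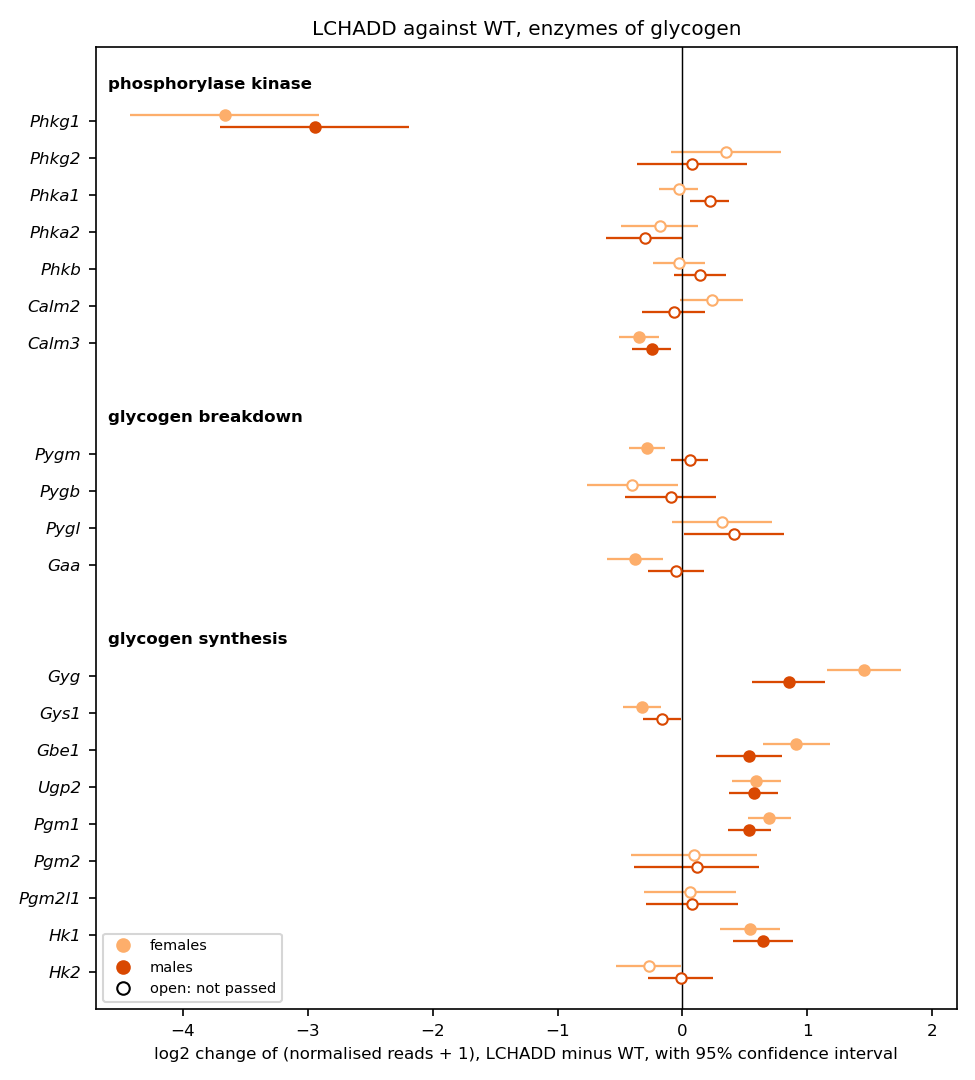
Log2 changes of normalised reads + 1 (x axis, LCHADD minus WT) with 95% confidence intervals for the tested genes described of the kinase, breakdown and synthesis lists, in females (light) and males (dark); filled points passed limma's adjusted threshold and open points did not. Phkg1 stands alone near -3.67 and -2.95, and Gyg, Gbe1, Ugp2, Pgm1 and Hk1 lie above 0.5 in both sexes.

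Glycogen-targeting subunits bring protein phosphatase 1 to glycogen, where it dephosphorylates the synthase, the phosphorylase and phosphorylase kinase. Of the 12 listed genes of this group 10 were tested: 1 rose and 3 fell in females, and 0 rose and 3 fell in males. Of all tested genes 16.7% passed as higher and 17.2% as lower in females, and 7.71% and 7.77% in males. Whether the counts of this group differ from those shares was not tested. Ppp1r3b fell by 0.66 in females and 0.57 in males on the log2 scale (SE 0.13 each), and Ppp1r3d by 0.49 and 0.45 (SE 0.13 each). Ppp1r3c fell by 0.51 in females (SE 0.13), and in males its change of -0.34 (SE 0.13) did not pass. Ppp1r3a, the striated muscle targeting subunit, fell by 0.31 averaged over the sexes (SE 0.09) and did not pass within a sex. The catalytic subunit genes Ppp1cc (0.24, SE 0.07) and Ppp1ca (0.18, SE 0.05) rose in the mean of both sexes, Ppp1cc also in females (0.35, SE 0.10). Ppp1r1a, a phosphatase inhibitor of at most 34.9 normalised reads, fell by 1.60 in males (SE 0.42). Ppp1cb, the remaining catalytic subunit gene, did not pass.

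Among 16 kinases and other regulators of glycogen, 1 rose and 4 fell in females, and 1 rose and 2 fell in males. Over all tested genes 16.7% passed as higher and 17.2% as lower in females, and 7.71% and 7.77% in males. Whether the list's counts differ from those shares was not tested. Stbd1, a starch-binding protein that tethers glycogen to membranes, rose from 84.7 to 207 normalised reads over the WT libraries to 694, 1844 and 607 in LCHADD females and, in LCHADD males, 472, 255 and 327. On the log2 scale it changed by 2.45 in females and 1.49 in males (SE 0.35 each), and LCHADD female 2 was far above the rest. Epm2a, which encodes the glycogen phosphatase laforin, fell by 0.93 in females and 0.57 in males (SE 0.15 each), without overlap between LCHADD (282 to 553) and WT (681 to 854) libraries. Prkab1, a subunit of AMP-activated protein kinase, fell by 0.48 and 0.34 (SE 0.10 each). Prkag3, another subunit of it, fell by 0.96 in females (SE 0.28), and Prkaca, the catalytic subunit of protein kinase A, which phosphorylates phosphorylase kinase, fell by 0.52 in females (SE 0.10). Gsk3b, which phosphorylates the synthase, rose by 0.31 in the mean of both sexes only (SE 0.09).

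Several of these calls were lost when libraries were left out or under another setting, and other calls were made only under another setting. Male libraries alone brought Ppp1r3c (limma adjusted p = 0.00065), Prkaca (0.0027), Gsk3b (0.0034), Ppp1r3a (0.016) and Ppp1ca (0.046) past the threshold in males. In females Ppp1r3a (limma adjusted p = 0.0042) and Gsk3b (0.020) passed without LCHADD female 3. In males, the call of Ppp1r3d was lost on leaving out any 1 male library, although its log2 change stayed between -0.49 and -0.39. That of Prkab1 was lost on leaving out any 1 except LCHADD male 3. The male call of Epm2a was lost without WT male 1, WT male 2, LCHADD male 1 or LCHADD male 3, and that of Ppp1r1a without WT male 1, LCHADD male 2 or LCHADD male 3. The male call of Stbd1 was lost without WT male 1 or LCHADD male 1, and that of Ppp1r3b without WT male 3 or LCHADD male 1. In females the call of Prkag3 was lost without WT female 3 or LCHADD female 1, those of Ppp1r3d and Ppp1cc without LCHADD female 2 and WT female 3 together, and those of Ppp1r3c and Ppp1cc with female libraries alone. The calls in the mean of both sexes of Ppp1r3b, Ppp1r3c, Ppp1r3d, Prkab1, Prkaca, Epm2a and Stbd1 were not lost under any setting tried except the added 1.5-fold rule, which Ppp1r3c, Ppp1r3d, Prkab1 and Prkaca, at 1.32- to 1.38-fold lower, did not meet.

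**Figure D3:**
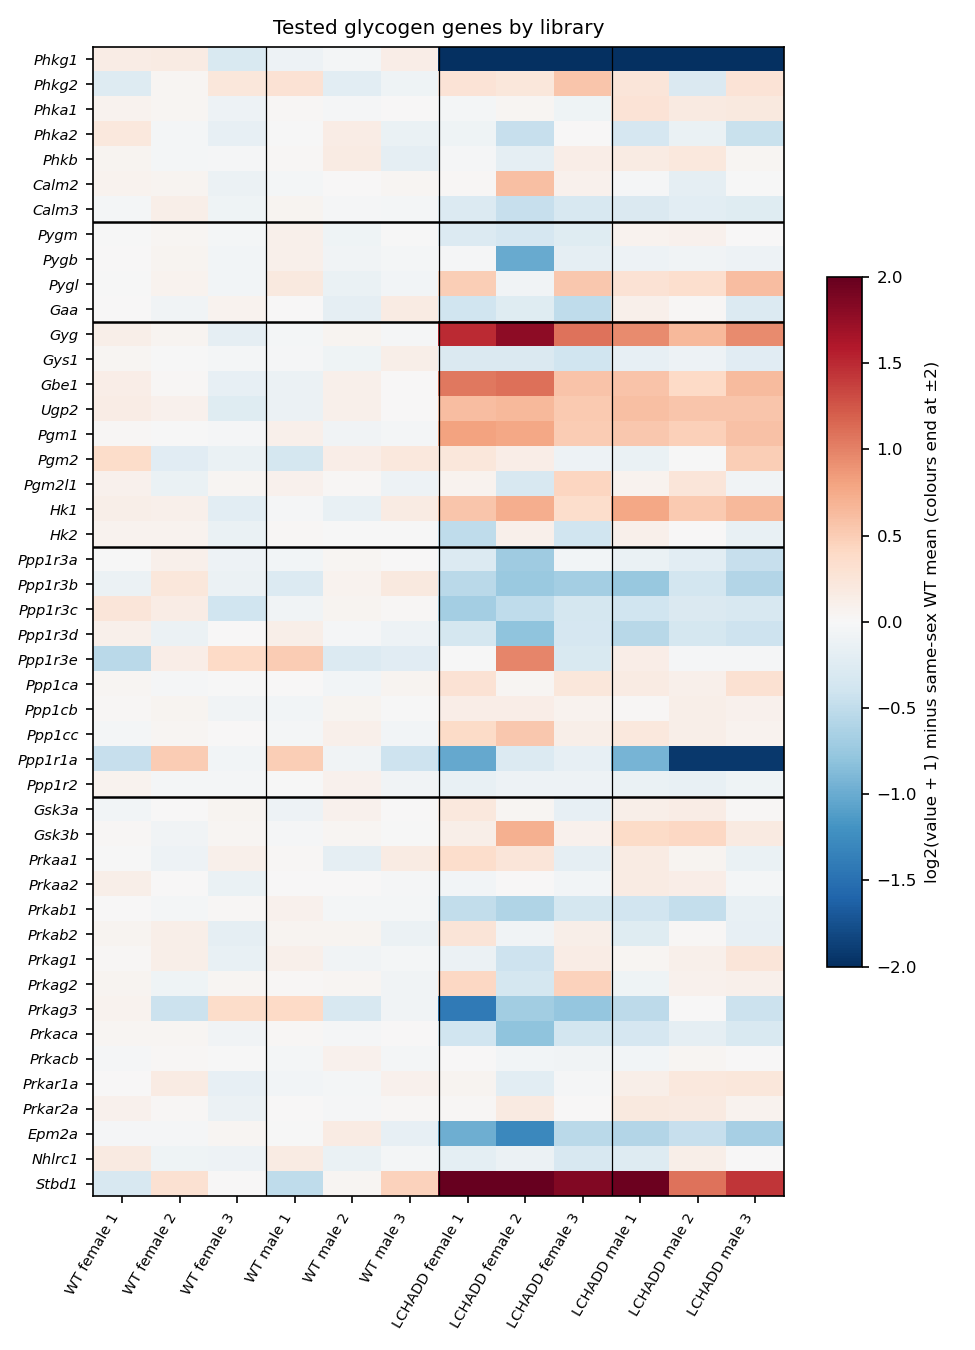
Difference of log2(normalised reads + 1) from the mean of the same-sex WT libraries (colour, red higher and blue lower, ending at 2 log2 units) for the tested glycogen genes described (rows, grouped by list with black lines) in each of the 12 libraries (columns). The 6 LCHADD columns are blue for Phkg1 and Epm2a and red for Gyg, Gbe1, Ugp2, Pgm1, Hk1 and Stbd1, and Pygb is strongly blue in LCHADD female 2 alone.

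The difference between the sexes was tested directly. None of the 9 members passed with limma or with edgeR (3, Phka1, Pygm and Gbe1, had an unadjusted limma p under 0.05). Over all tested genes limma called 1 gene (0.00721%), edgeR 2 and DESeq2 126. An unadjusted limma p under 0.05 was found for 1363 genes. Pygm came nearest, with a female change 0.34 lower than the male change on the log2 scale (SE 0.10, 95% interval -0.55 to -0.13, limma adjusted p = 0.25). It passed with DESeq2 (adjusted p = 0.020) and with limma's array quality weights (adjusted p = 0.019). The Phkg1 change was 0.72 lower in females than in males (SE 0.50, 95% interval -1.79 to 0.35), and the Gbe1 change was 0.38 higher (SE 0.18, 95% interval 0.00086 to 0.76). For Ugp2 the sexes differed by 0.02 (SE 0.13, 95% interval -0.26 to 0.30).

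Levels of different genes were compared per kilobase of annotated exon. In WT females the order was Pygm (5933 ± 155), Pygb (2988 ± 113), Ugp2 (1669 ± 240), Gys1 (471 ± 13.6), Phka1 (184 ± 11.4), Gbe1 (180 ± 18.1), Phkb (139 ± 5.31), Phkg1 (54.8 ± 9.58) and Phka2 (38.1 ± 5.02) normalised reads per kilobase (SD, n = 3). Phka1 and Gbe1 did not differ beyond their spread, and the lowest Phkg1 value (43.8) lay beside the highest Phka2 value (43.7). The ranges of the other neighbours did not overlap. In WT males Gbe1 (197 ± 14.9) lay above Phka1 (166 ± 2.40) without overlap, while the range of Phkb (167 ± 19.2) overlapped both. The WT male ranges of Phkg1 (46.5 to 54.7) and Phka2 (38.8 to 47.1) also overlapped, so their order was not resolved there with this length. In LCHADD females Gbe1 (343 ± 65.3) stood near Gys1 (377 ± 17.4), with overlapping ranges, and Phkg1 (4.78 ± 3.33) was the lowest member. In LCHADD males the same held for Phkg1 (6.68 ± 2.57), while Gbe1 (285 ± 24.3) stayed below Gys1 (449.5 ± 20.7). The annotated exons of Phkg1 span 6509 bases and its longest coding transcript 2374, so its level per kilobase depends on the length used more than that of Pygm (3218 and 2874 bases). The same 2 lengths are 6068 and 4341 bases for Phka2. Not divided by length, Phkg1 (303 to 356) lay above Phka2 (235 to 286) in WT males.

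Within the 6 LCHADD libraries the members did not move as a block. The order of the libraries by Phkg1, from LCHADD female 2 (16.5) up to LCHADD male 2 (59.5), was the exact reverse of their order by Gbe1, from 2069 down to 1381, an order noticed after the values were seen. This reverse relation did not extend to the 6 WT libraries, where Pearson's r of log2 values for the 2 genes was 0.422. LCHADD female 3 had the highest Phkg1 and the lowest Gbe1, Ugp2, Gyg, Pgm1 and Stbd1 of the LCHADD females. It also had the largest mitochondrial read share of all libraries, 37.9%, and the part of that share was not tested.

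The genes whose pattern was most like that of Phkg1 were found by Pearson's r of log2 values over the 12 libraries, among 10253 genes with a mean of at least 50. Since the WT and LCHADD libraries form separate sets, r over all 12 mostly reflects that gap, and the values after subtracting group means and within the 6 LCHADD libraries stand beside it as descriptions without a test. Cacna2d1, a calcium channel subunit, was closest (r = 0.986 over 12 libraries, 0.980 after subtracting group means, 0.951 within LCHADD). WT females had 3354, 3330.3 and 3056 normalised reads, WT males 3649, 3587 and 3576, LCHADD females 1334, 1317 and 1823, and LCHADD males 1910.2, 2139 and 1625. Within LCHADD females and within LCHADD males, the order of the libraries was the same for Phkg1 and Cacna2d1. The next were Plekha6 (0.984, 0.844 and 0.917 by the same 3 measures), Pdlim4 (0.978, 0.783 and 0.878), Sept9 (0.977, 0.774 and 0.906) and Pknox2 (0.977, 0.678 and 0.859). Among the 6 WT libraries r with Phkg1 was 0.095 for Cacna2d1. Over the 5 genes it was between -0.293 (Pknox2) and 0.65 (Plekha6), so the likeness did not extend to the WT libraries for all 5. For the members, r with Phkg1 after subtracting group means was 0.681 for Phka2, 0.631 for Phkb, 0.518 for Pygm and 0.429 for Pygb. It was between -0.198 and 0.0193 for Phka1, Gys1 and Ugp2, and -0.706 for Gbe1. Within the 6 LCHADD libraries r of Gbe1 with Phkg1 was -0.957, but within the 6 WT libraries it was 0.422.

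**Figure D4:**
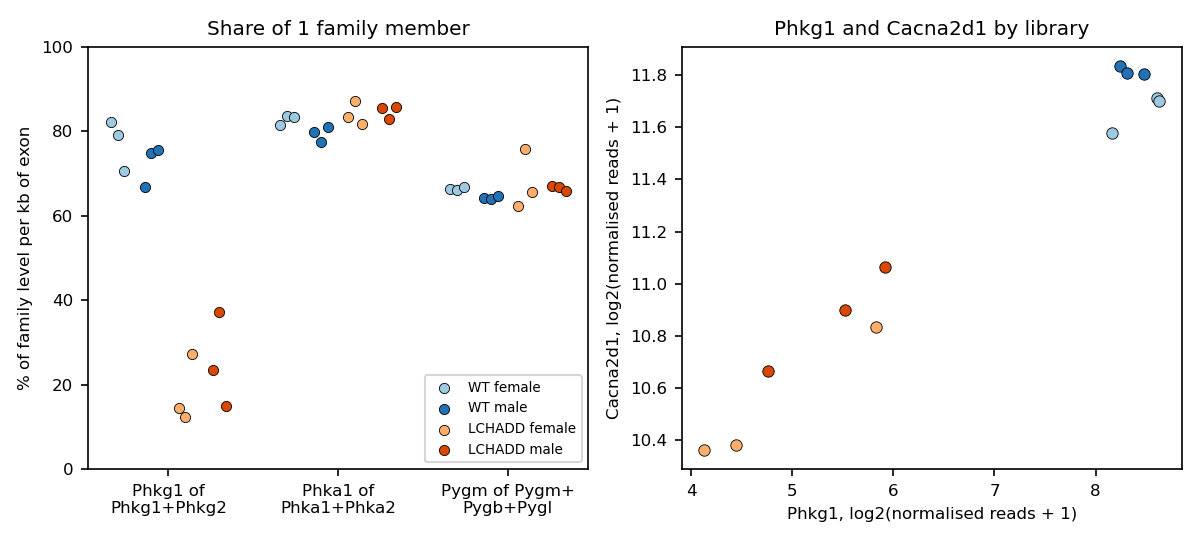
Left: share (percent of the summed level per kilobase of exon) of Phkg1, Phka1 and Pygm within their isoform families in each library, coloured by group. Right: Phkg1 against Cacna2d1 in each library, both as log2(normalised reads + 1). The Phkg1 share is 66.8 to 82.3% in WT and 12.2 to 37.2% in LCHADD libraries, while the Phka1 and Pygm shares stay above 60% in every library, and on the right the WT and LCHADD libraries form separate sets.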

How the data were processed

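Total RNA from fresh ventricles was sequenced in 12 libraries, and labels give each library's genotype and sex. The authors deposited signal values for every gene, each a read count divided by the library's size factor. Per the submitters' processing notes, bcl2fastq, DESeq2 and build GRCm39 were used, without versions; no aligner, annotation or strand setting is given in the sources used here. In every library 100% of values were whole multiples of 1 step (within 0.01), so reads were recovered. Symbols, exon lengths and overlaps came from GENCODE vM21 (build GRCm38), matched by Ensembl ID for 51633 of 51912 genes; Pgm1 and Pgm2 are named as there.

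Genes with at least 10 in at least 3 libraries (13865 of 25687 with any read) were tested as log2(value + 1) with limma 3.58.1 (lmFit, eBayes with a trend) in R 4.3.3, in 1 fit with 4 group means. The limma fit was also run on simulated counts with known changes, in far fewer genes than passed here. Alternatives were other added values and filters, TMM, upper-quartile and nuclear-read scaling, edgeR 4.0.16 and DESeq2 1.42.0 on recovered reads, array quality weights, the compared groups alone, the replicate number as a block, leaving out libraries, a 1.5-fold threshold and, for shares, other lengths. Replicates of a group differed by more than sampling noise. The members and lists were chosen with earlier results of these data known. Named genes are the 9 members, every listed pathway gene that passed, up to 2 abundant ones per list that did not, and the 5 genes most like Phkg1. Some listed genes are not reported here.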

Additional observations from a re-analysis of the deposited data

How the results depend on the processing

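The 5, 3 and 4 members that passed in females, males and the mean of both sexes became 3, 1 and 2 when a change of at least 1.5-fold was also required. Leaving out 1 library gave 5 to 6, 2 to 4 and 4 to 7 members, the 7 without LCHADD female 3. Over all tested genes the same fits gave 3733 to 5075, 1317 to 3293 and 5019 to 6033, the 6033 also without LCHADD female 3. With all libraries these totals were 4692, 2146 and 5661. For the difference between the sexes no member passed when 1 library was left out, 1 passed with DESeq2 (Pygm) and 2 with array quality weights (Pygm and Gbe1). Values near 0 changed sign. In females Phka1 went to 0.039 and Phkb to 0.041 with nuclear-read scaling, and Phkb to 0.044 without LCHADD female 2 and WT female 3 (both settings chosen after seeing the data). Leaving out 1 library gave -0.080 to 0.0065 for Phka1 and -0.11 to 0.054 for Phkb. For the difference between the sexes, Ugp2 became -0.011 with array quality weights and -0.13 without LCHADD female 2 and WT female 3, with -0.10 to 0.10 on leaving out 1 library. That of Pygb, which was not near 0, moved from -0.31 (SE 0.24) to 0.026 with array quality weights. The female difference in family share ranged from -0.21 to 2.48 percentage points for Phka1 and from -2.46 to 4.22 for Pygm, each negative without LCHADD female 2. The cause was not tested. Phkg1, Pygm, Gys1, Gbe1 and Ugp2 kept their direction and call in females under all 25 alternatives, except the added 1.5-fold rule.

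Over all genes, 2146 passed in males, and 3601 did with array quality weights, 3342 with male libraries alone, 3317 without LCHADD female 2 and WT female 3, and 1317 to 3293 on leaving out 1 library. For the difference between the sexes the single gene became 749 with array quality weights, 126 with DESeq2, 9 without LCHADD female 2 and WT female 3, 2 with edgeR or a filter at 50, and 0 to 186 on leaving out 1 library. With the 1.5-fold rule 2461, 1087 and 2033 genes passed in females, males and both sexes.

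No pairing of libraries by equal replicate numbers was seen. Deviations from group means of libraries with equal numbers correlated at -0.11 to 0.049 over 18 pairs. Of the 12 libraries 3 correlated best with a library of their own number. A shared day or litter with a small effect, or an effect on few genes, could go unseen in this check. With the replicate block, 5, 3, 4 and 0 members passed, as without it, of 4502, 2016, 5482 and 1 genes; Calm3 in males did not (adjusted p = 0.056). Groups of 3 were given no outlier test. Chi-square per degree of freedom between replicates was 20.8 to 53.1 within LCHADD females and 4.62 to 14.7 within the other groups. Phkg1 rested on 16.5 to 59.5 normalised reads in LCHADD libraries, where relative counting error is larger than in WT.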
